A study of Mus musculus with 2 samples.

Results

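The solute carrier family SLC25 was examined on 2 Affymetrix arrays of mouse peritoneal macrophages. All genes with a platform gene symbol made of Slc25a and a number were taken, which gave 44 of the 18193 genes measured. One array came from cells transfected with a control siRNA and the other from cells transfected with HDAC9 siRNA, which targets a histone deacetylase of class IIa. Both groups were male C57BL/6 cells and were collected 48 h after transfection. The age of the mice, any elicitation of the cells and any pooling of animals are not stated in the labels. The design asks which transcripts differ after the knockdown. With 1 array per group, no difference below could be set against a spread between cultures, and no test was made.

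SLC25 proteins sit mostly in the inner membrane of mitochondria and exchange solutes between the cytosol and the matrix. They carry nucleotides and phosphate for ATP synthesis, carboxylates and amino acids for the citric acid cycle and the redox shuttles, carnitine esters for fatty acid oxidation, and cofactors and iron. In activated macrophages, citrate exported by a member of the family feeds lipid synthesis and the making of inflammatory mediators.

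Values are log2 signals of probe sets, and the probe set of highest mean linear signal stands for each gene. A signal counted as above background when it exceeded 6.34 on the log2 scale, the 95th percentile of 80 probe sets for olfactory and vomeronasal receptors. Signals under this floor were set to it, and ratios are log2 differences, HDAC9 siRNA minus control siRNA. Where 1 array was under the floor the ratio is only a bound, written "at least". The signal of a probe set also depends on its own sequence, so signals of different genes are not compared as transcript amounts.

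The siRNA target read 6.88 (log2) with control siRNA and 5.69, under the floor, with HDAC9 siRNA, so its brighter probe set was at least 1.46-fold lower; the other Hdac9 probe set was below background on both arrays. The size of this drop follows the floor: the log2 ratio was -0.54 as given, -1.19 with a floor at percentile 75, and with one at percentile 99 Hdac9 was below background on both arrays. Above-background probe sets numbered 23158 with control siRNA and 24140 with HDAC9 siRNA. All 9 general macrophage markers measured were above background on both arrays, with control log2 signals from 10.9 to 14.7 and ratios from -0.46 to 0.43. Of 8 markers of large peritoneal macrophages, 5 were above background, among them Gata6 (10.7 and 11.2), while Timd4, Alox15 and F5 were below it on both arrays. The 12 mesothelial and stromal markers were all above background, and their summed linear signal was 33974 with control siRNA and 47308 with HDAC9 siRNA. Their directions were mixed, with 6 ratios below 0 and 6 above. The highest ratios were those of the collagen genes Col1a1 (1.80) and Col3a1 (1.46). Among the mesothelial genes, Msln (-1.11) and Krt7 (-0.99) were lowest and Lrrn4 (0.56) was highest. The 7 T cell markers summed to 1113 and 675, with Cd3d, Cd3e, Cd3g and Cd4 below background on both arrays. Of the other marker lists, 2 of 5 B cell, 4 of 6 neutrophil and 2 of 8 mast cell and eosinophil genes were above background; their summed signals were 318 and 412, 1594 and 1649, and 937 and 639. What part other cells had in the carrier values was not tested. In RNA of a whole culture, fewer cells of a type and less RNA per cell cannot be told apart.

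Carrier transcripts were close to level between the arrays. Of the 44 SLC25 genes, 34 were above background on both arrays, 3 with HDAC9 siRNA only and 7 on neither. Among the 37 above background on at least 1 array, 0 were at least 2-fold higher, where 1.44% of all 12090 such genes were, and 0 were at least 2-fold lower, against 0.372% of all genes. The counts of higher carriers are minimum counts, since 3 ratios are bounds. At 1.5-fold there were 2 higher carriers, Slc25a23 and Slc25a53, against a background of 7.81%, and 0 lower ones, against 2.79%. Of the 34 on both arrays, 0 were at least 2-fold higher or lower, against 1.3% and 0.27% of all such genes, and at 1.5-fold 1 was higher, Slc25a53, against 7.02%, and 0 lower, against 2.27%. With shares this small among all genes, counts of 0 to 2 of 37 do not set the carriers apart.

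The directions of the carriers were mixed. Ratios lay below 0 for 20 of the 37 genes, against 45.9% of all genes above background, and the median was -0.05, against 0.03 for all. The 3 carriers above background with HDAC9 siRNA only could have no ratio below 0. Without them 20 of 34 lay below 0, against 47.3% of all genes above background on both arrays, and the median was -0.07, against 0.02. The median absolute ratio was 0.17 among these 34 carriers and 0.19 among all genes on both arrays. The summed linear signal of the 44 genes was 86014 with control siRNA and 82636 with HDAC9 siRNA, a log2 ratio of -0.06; the 3 brightest probe sets made up 47.1% of the signal of the 37 carriers above background and the 10 brightest 81.4%.

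**Figure D1:**
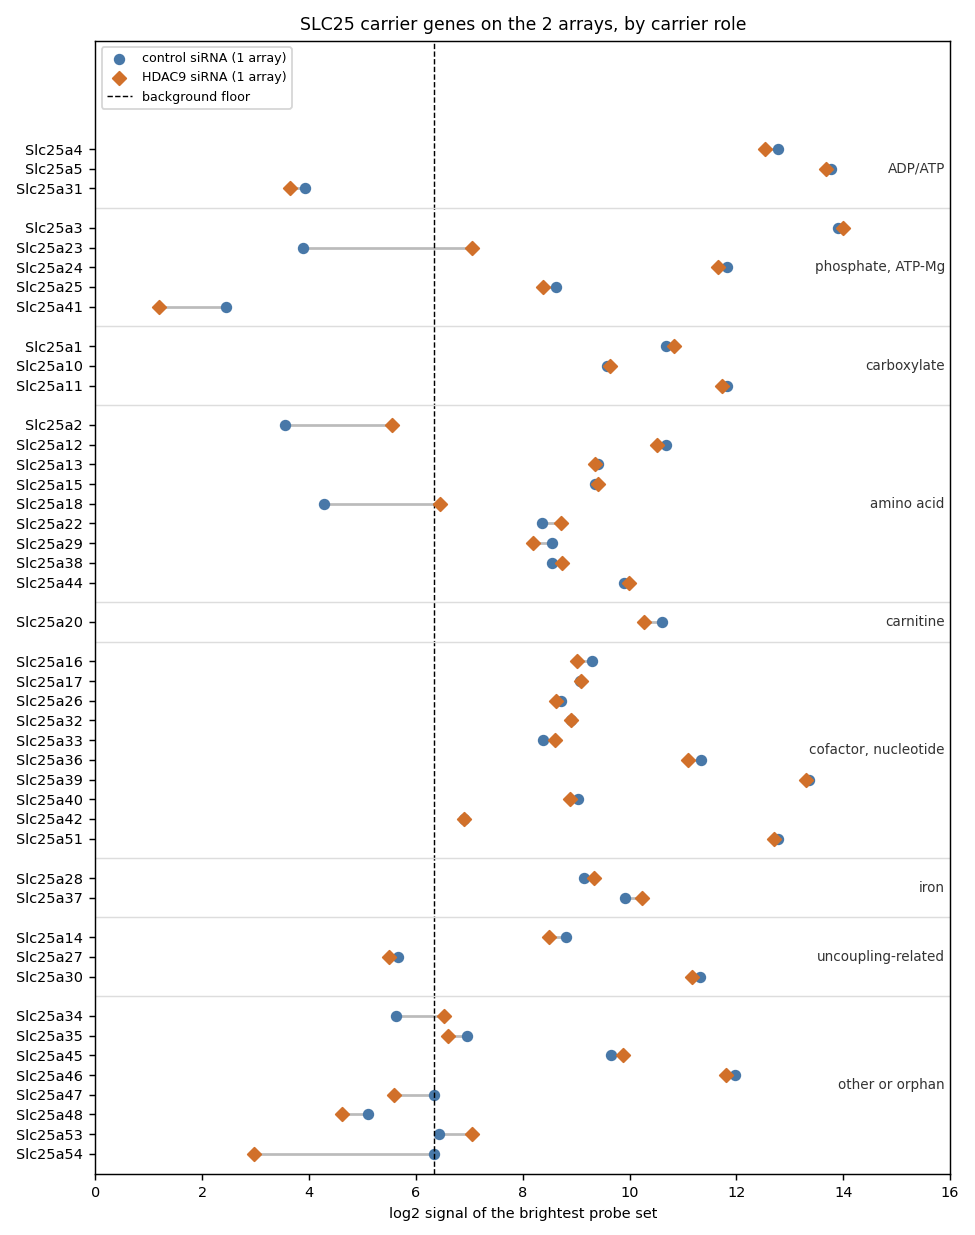
Log2 signal of the brightest probe set of each of the 44 SLC25 genes (rows, grouped by carrier role) on the control siRNA array (circles) and the HDAC9 siRNA array (diamonds), 1 array each, with the background floor of 6.34 as a dashed line. Where both arrays are above the floor the symbols nearly overlap, and the wide gaps belong to genes with at least 1 signal under it.

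Disagreement between probe sets of the same gene gave a scale for these ratios. For genes with more than 1 usable probe set, the scatter (SD of the difference in ratio between the 2 brightest, over the square root of 2) was 0.41, 0.37, 0.27 and 0.20 from the dimmest to the brightest of 4 equal bins of mean signal. This scatter covers probe sets of 1 pair of arrays, above background on at least 1 of them, so some of its ratios are bounds. It leaves out the spread between cultures. Each gene was binned by its brightest probe set and the second is dimmer, so the scatter may be too wide for the brightest one. Among the 34 carriers above background on both arrays, the absolute ratio was smaller than the scatter of its own bin for 29. The other 5 were Slc25a20, Slc25a36 and Slc25a4, with ratios below 0, and Slc25a37 and Slc25a53, with ratios above 0. Of these 34, 0 reached 2 times the scatter, and 0 were among the lowest or the highest 5% of genes in their bin. The ratios of Slc25a18, Slc25a23 and Slc25a34 are lower bounds and set no upper limit; the bound of Slc25a23, 0.71, was above the 0.41 scatter of its bin.

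The ratios of all genes were lower in brighter bins. In the brightest bin the median ratio of all genes was -0.05 and 61.4% of them lay below 0. The 11 carriers there had a median of -0.10, and 9 of them lay below 0. In the dimmest bin the median was 0.15 for all genes and 0.15 for the 6 carriers, of which 1 lay below 0. Of these carriers, Slc25a18, Slc25a23 and Slc25a34 were above background with HDAC9 siRNA only and could have no ratio below 0. Among all genes, 888 were above background with HDAC9 siRNA only and 470 with control siRNA only, and the floor fixed their signs too. The 12 carriers of the next bin had a median of -0.06, against 0.09 for all genes, and the 8 of the next brighter bin 0.06, against 0.02.

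**Figure D2:**
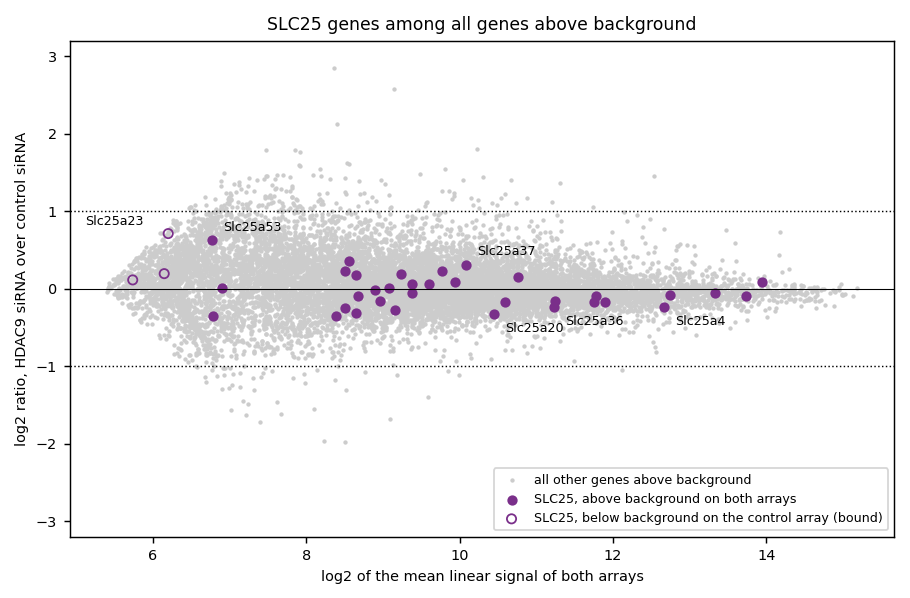
Log2 ratio, HDAC9 siRNA to control siRNA (vertical axis), against the log2 of the mean linear signal (horizontal axis) for all genes above background (grey) and the SLC25 genes (purple; open where the control array was below background, so that the ratio is a bound). Dotted lines mark 2-fold; all 37 carriers are plotted between them, 3 of them as bounds, and the 6 labelled genes are those whose absolute ratio or bound is at least the probe-set scatter of their signal bin.

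The promoters of 5 of the 6 labelled genes are shown because these carriers had the largest ratios or bounds for their signal, without Slc25a37. Each stretch holds the 250 bases before the annotated start, 5′ to 3′ on the gene's strand, from RefSeq on GRCm38.p6. Capitals mark the GC box GGGCGG bound by SP and KLF factors and the ETS core CCGGAAG, on either strand; the motifs do not overlap here. The positions are chr9:108661886-108662135 (plus strand) for Slc25a20, and on the minus strand chr9:97111042-97111291 for Slc25a36, chr8:46211063-46211312 for Slc25a4, chrX:137038303-137038552 for Slc25a53 and chr17:57059864-57060113 for Slc25a23. For Slc25a53 and Slc25a23, which have 2 annotated starts, the first one listed is shown.
Slc25a20: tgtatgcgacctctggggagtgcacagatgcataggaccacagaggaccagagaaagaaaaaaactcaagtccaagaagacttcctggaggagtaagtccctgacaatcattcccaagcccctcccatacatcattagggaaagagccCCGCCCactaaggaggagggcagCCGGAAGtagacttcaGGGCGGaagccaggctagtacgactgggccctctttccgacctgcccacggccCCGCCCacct
Slc25a36: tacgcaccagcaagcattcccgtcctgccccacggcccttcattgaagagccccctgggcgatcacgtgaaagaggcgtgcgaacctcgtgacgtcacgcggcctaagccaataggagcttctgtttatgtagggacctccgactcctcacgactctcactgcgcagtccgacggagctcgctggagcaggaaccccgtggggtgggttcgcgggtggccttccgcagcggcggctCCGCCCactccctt
Slc25a4: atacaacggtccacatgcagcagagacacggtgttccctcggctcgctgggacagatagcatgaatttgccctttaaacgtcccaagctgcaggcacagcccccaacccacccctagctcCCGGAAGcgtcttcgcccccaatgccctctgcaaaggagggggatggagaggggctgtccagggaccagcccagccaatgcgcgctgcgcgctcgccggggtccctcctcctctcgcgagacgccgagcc
Slc25a53: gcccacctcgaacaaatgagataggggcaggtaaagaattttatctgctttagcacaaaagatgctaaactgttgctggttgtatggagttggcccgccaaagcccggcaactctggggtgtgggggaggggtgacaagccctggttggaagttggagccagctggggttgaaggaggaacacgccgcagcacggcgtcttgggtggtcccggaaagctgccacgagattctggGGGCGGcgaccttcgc
Slc25a23: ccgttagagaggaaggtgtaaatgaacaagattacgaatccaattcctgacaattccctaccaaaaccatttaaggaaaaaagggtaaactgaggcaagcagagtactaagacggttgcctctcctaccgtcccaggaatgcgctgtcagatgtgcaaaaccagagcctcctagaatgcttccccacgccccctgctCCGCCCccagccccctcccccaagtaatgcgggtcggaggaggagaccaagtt

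There were 3 GC boxes in the window of Slc25a20, 1 each in those of Slc25a36, Slc25a53 and Slc25a23, and 0 in that of Slc25a4. The windows of Slc25a20 and Slc25a4 each held 1 ETS core. None of the 5 windows held the TATA box TATAAA. Genes with ratios below and above 0 both had windows with a GC box.

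Promoters were listed for 34 of the 44 carriers, with 43 starts in all. Of these 43 windows, 74.4% held a GC box, against 32.7% of 32851 windows of the same length in the whole table, and the median GC content was 58.0% against 52.4%. The ETS core was in 6 of the 43 against 6.91%, the CCAAT box CCAAT in 46.5% against 33.8%, and the E-box CACGTG in 18.6% against 6.02%. The TATA box was in 1 window, that of Slc25a18 (2.33% against 12.4%). Class IIa deacetylases are best known for binding MEF2 factors, and a MEF2-like motif (CTA and TAG with any 4 bases between them) was in 2 of the 43 windows, of Slc25a10 and Slc25a22, or 4.65%, and in 1052 of all 32851. Another form of the MEF2 core, TATTTTTA, tried after that result was known, was in 0 of the 43, against 2.45% of all windows. Several starts of a gene can overlap and share letters. A match describes the letters of these windows and is not a measured site.

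ADP/ATP carriers exchange matrix ATP for cytosolic ADP, and both above background had ratios below 0. Both were in the brightest bin, where 61.4% of all genes lay below 0. Slc25a4, the isoform of heart and muscle, had log2 signals of 12.78 with control siRNA and 12.54 with HDAC9 siRNA, a ratio of -0.24. Its 3 probe sets above background all lay below 0, at -0.24, -0.11 and -0.29. These are all _a_at or _x_at probe sets. The remaining probe set of Slc25a4 was below background on both arrays (4.81 and 5.43). Slc25a5, the isoform of most dividing cells, read 13.77 and 13.68, a ratio of -0.09. Its 8 probe sets straddled 0, from -0.13 to 0.08. Slc25a31, the germ cell isoform, was below background on both arrays.

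Phosphate and ATP-Mg carriers had both signs. Slc25a3, which imports the phosphate used by ATP synthase, read 13.90 and 13.99, a ratio of 0.09, but its dim second probe set was at -0.40. The calcium-regulated ATP-Mg and phosphate carriers Slc25a24 and Slc25a25 were at -0.17 (11.83 and 11.66) and -0.25 (8.62 and 8.37). The second probe set of Slc25a24 had the same sign, at -0.32. For Slc25a25 the second probe set went the other way. It read 6.18, under the floor, with control siRNA and 7.46 with HDAC9 siRNA, at least 2.18-fold higher, so its bound was past 2-fold. Of 65 carrier probe sets above background on both arrays, 0 were past 2-fold, and the ratios of the other 6 above background are bounds.

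Slc25a23, another carrier of this kind, had a bound as its ratio. Its single probe set had a deposited log2 signal of 3.88 on the control array, far under the floor, and 7.05 with HDAC9 siRNA, so the gene was at least 1.64-fold higher. The size of its ratio follows the floor: it was 0.13 with a floor at percentile 99 of the receptors and 1.77 with one at percentile 75. Slc25a41, also an ATP-Mg carrier, was below background on both arrays.

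The carboxylate carriers had small ratios of both signs. Slc25a1, which exports citrate to the cytosol, read 10.68 with control siRNA and 10.83 with HDAC9 siRNA, a ratio of 0.15. Slc25a10, the dicarboxylate carrier for malate and succinate, read 9.57 and 9.63, a ratio of 0.06, and its second probe set was at -0.14. Slc25a11, the oxoglutarate and malate carrier of the malate-aspartate shuttle, read 11.82 and 11.72, a ratio of -0.10. All 3 ratios were smaller than the scatter of their signal bins.

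Fatty acid entry into mitochondria runs through Slc25a20, the carnitine and acylcarnitine carrier. It read 10.60 with control siRNA and 10.28 with HDAC9 siRNA, which put it 1.25-fold lower, at a ratio of -0.32. Its second probe set read 9.47 and 9.68, a ratio of 0.21. The 2 probe sets of this gene thus disagreed in sign.

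Of 9 amino acid carriers, 7 were above background on both arrays, and they had both signs. The highest of these was Slc25a22, a glutamate carrier, at 0.35 (8.37 and 8.72), and the lowest was Slc25a29, a carrier of basic amino acids, at -0.36 (8.55 and 8.20). The second probe set of Slc25a29 was at 0.30, of opposite sign. Slc25a38, the glycine carrier needed for haem synthesis, was at 0.18, and the aspartate and glutamate carrier Slc25a12 at -0.17 with all 3 of its probe sets below 0. The other 3, the ornithine carrier Slc25a15, the aspartate and glutamate carrier Slc25a13 and the branched-chain amino acid carrier Slc25a44, lay between -0.05 and 0.09. Their dimmer probe sets spread further: that of Slc25a15 was at 0.69 (6.98 and 7.67), and the dimmest of Slc25a44 was at least 1.80-fold higher (5.58, under the floor, and 7.19). Slc25a18, a second glutamate carrier, was above background with HDAC9 siRNA only, at least 1.08-fold higher, and Slc25a2 on neither.

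Of 10 cofactor and nucleotide carriers, all above background on both arrays, 7 had a ratio below 0, against 47.3% of all such genes. Slc25a36, Slc25a39 and Slc25a51 were in the brightest bin, where 61.4% of all genes lay below 0. Slc25a16, linked to coenzyme A supply, was at -0.27 (9.29 and 9.02). Slc25a36, a pyrimidine nucleotide carrier, read 11.34 and 11.10, a ratio of -0.24, with its other probe sets at 0.06 and -0.47. Its paralogue Slc25a33 was at 0.23 (8.38 and 8.61). These paralogous carriers thus had ratios of opposite sign, each smaller than 0.25.

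The glutathione carrier Slc25a39 read 13.35 and 13.29, a ratio of -0.06, with its other 3 probe sets from 0.01 to 0.33. Its paralogue Slc25a40 was at -0.16. Slc25a51, the NAD carrier, read 12.78 and 12.70, a ratio of -0.08, and its 3 probe sets all lay below 0. The remaining 4, for S-adenosylmethionine (Slc25a26), folate and FAD (Slc25a32), coenzyme A (Slc25a42) and peroxisomal cofactors (Slc25a17), lay between -0.10 and 0.01. The signs of Slc25a17 and Slc25a42 turned under each of 3 other scalings and that of Slc25a39 under 1 of them, so these genes have no direction here.

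The mitoferrins bring iron into the matrix for haem and iron-sulfur clusters, and both had a ratio above 0 and short of 1.5-fold. Of all genes above background on both arrays, 47.3% had a ratio below 0. Slc25a37, mitoferrin 1, read 9.92 and 10.23, which is 1.24-fold higher, at a ratio of 0.31. Slc25a28, mitoferrin 2, read 9.14 and 9.33, a ratio of 0.19, smaller than the 0.37 scatter of its bin. Each was read by a single probe set with 1 gene symbol.

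The 2 uncoupling-related carriers above background lay below 0, where 47.3% of all genes above background on both arrays did. One of them, Slc25a30, was in the brightest bin, where 61.4% of all genes did. Slc25a14 was at -0.31 (8.80 and 8.49), and Slc25a30 read 11.33 and 11.17, a ratio of -0.16, with its other probe sets from -0.36 to 0.06. Slc25a27 was below background on both arrays.

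Among carriers of other or unknown substrates above background on both arrays, Slc25a53 had the highest ratio. It read 6.43 on the control array, just above the floor, and 7.05 with HDAC9 siRNA, which is 1.54-fold higher. Its second probe set was under the floor with control siRNA, at 6.08, and at least 1.58-fold higher with HDAC9 siRNA. Being above background with HDAC9 siRNA only, this probe set could have no ratio below 0, so its sign is no second reading. With the floor at the 99th percentile its ratio was 0.12. Slc25a35 was at -0.35 (6.95 and 6.61) and Slc25a45 at 0.22 (9.65 and 9.88). Slc25a46, an outer-membrane protein that shapes mitochondria, read 11.98 and 11.80, a ratio of -0.18, with its second probe set at -0.12. Slc25a34 was above background with HDAC9 siRNA only, at least 1.14-fold higher, and Slc25a47, Slc25a48 and Slc25a54 on neither. The control signals of Slc25a47 (6.335) and Slc25a54 (6.336) were just under the floor of 6.339. With HDAC9 siRNA these genes read 5.58 and 2.96, so a slightly lower floor would put both above background with control siRNA only.

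Probe sets of the same carrier often disagreed. Of 19 carriers with several probe sets above background, 9 had all ratios on 1 side of 0 and 10 had both signs. The 2 brightest probe sets had the same sign in 10 of the 19 (52.6%), where 61.2% of 5671 genes did. Their scatter, computed as above, was 0.30, against 0.29 over all these genes. Probe sets above background on 1 array only are included in these counts and in the scatter, with a sign fixed by the floor. The second probe sets of Slc25a53, counted as the same sign, and of Slc25a25, counted as the opposite sign, are of this kind.

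**Figure D3:**
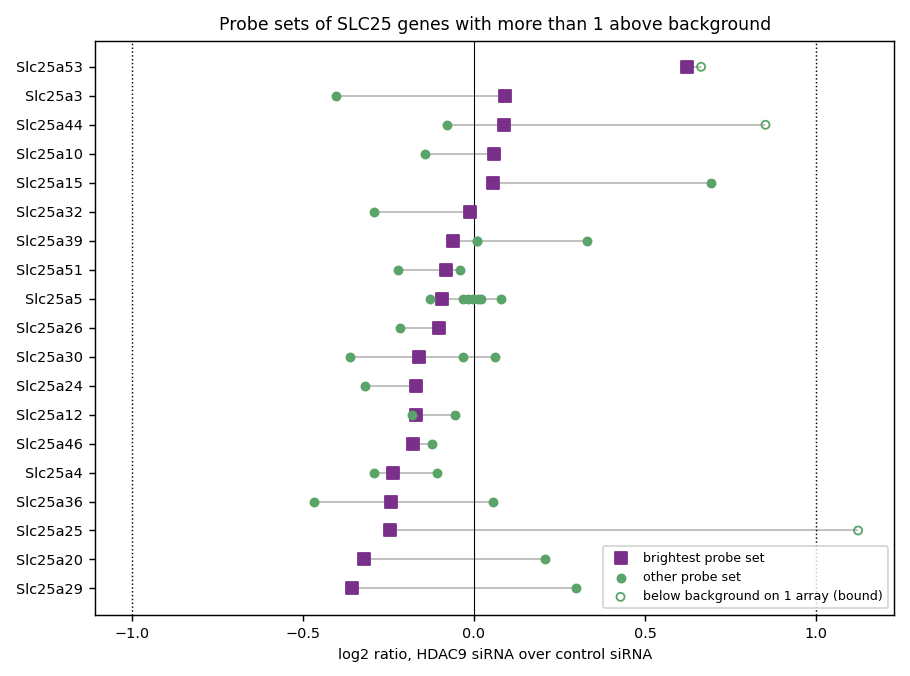
Log2 ratio, HDAC9 siRNA to control siRNA, for every probe set above background of the 19 SLC25 genes with more than 1 such probe set (rows); squares are the brightest probe set, circles the others, and open circles are bounds with the control array below background. Points of 10 genes lie on both sides of 0, and 1 probe set of Slc25a25, a bound, is plotted past the dotted lines at 2-fold.

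For the family under other names 8 symbols were sought, of which 4 had a gene value. Ucp2 was among those without one, so it could not be read here. Of the 4 with a value, 3 were above background. The outer-membrane insertases Mtch1 and Mtch2 had ratios of 0.04 and -0.14 and the uncoupling protein gene Ucp3 -0.09, while Ucp1, the uncoupling protein of brown fat, was below background on both arrays. Carriers reach the inner membrane through the TOM70 receptor and the TIM22 complex, and of 14 genes of this import route, all above background on both arrays, 0 were past 2-fold, against 1.3% higher and 0.27% lower among all such genes, and 7 lay below 0, against 47.3%, with a median of -0.03. The largest ratios there were 0.44 for Agk, a subunit of the TIM22 complex, -0.39 for the chaperone gene Timm8b, -0.28 for Timm22, its channel, and 0.26 for the receptor gene Tomm70a, or -0.11 for Tomm70a without _a_at, _s_at and _x_at probe sets. Agk was at 0.02 when the median of its probe sets was used.

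Other inner-membrane transporters, among them the pyruvate carrier, the calcium uniporter and the sideroflexins, had a median of -0.05. Of 17 genes above background, 10 lay below 0, against 45.9% of all genes, and 0 were past 2-fold, against 1.44% higher and 0.372% lower. At 1.5-fold 1 was higher, against 7.81% of all genes, and 1 lower, against 2.79%. Sfxn4 was above background with HDAC9 siRNA only and could have no ratio below 0. The 16 genes above background on both arrays had a median of -0.07. All genes above background on both arrays had a median of 0.02, and 47.3% of them lay below 0. The calcium uniporter regulator Micu3 was 1.62-fold lower (8.22 and 7.52) and the sideroflexin gene Sfxn5 1.59-fold higher (7.81 and 8.48). The pyruvate carrier subunit Mpc1 was at -0.41 (13.06 and 12.65) and the uniporter pore Mcu at 0.36. The outer-membrane channels Vdac1, Vdac2 and Vdac3, through which carrier substrates pass, were at -0.09, -0.11 and -0.15. These channel genes were in the brightest bin, where 61.4% of all genes lay below 0.

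Enzymes that make or use the carried solutes had a median of -0.02, which turned to 0.01 after quantile normalization and 0.02 after loess. Of 28 above background, all on both arrays, 17 lay below 0, against 47.3% of all such genes. Of them 1 was at least 2-fold higher, against 1.3%, and 0 at least 2-fold lower, against 0.27%. The 1 was Acod1, which makes itaconate from aconitate, at 2.24-fold higher (9.21 and 10.37). Several of the enzymes, among them Acly, Alas1 and Gpx1, were in the brightest bin, where 61.4% of all genes lay below 0. Alas1, the first enzyme of haem synthesis, was 1.52-fold lower (12.34 and 11.74). Shmt1 and Shmt2, the cytosolic and mitochondrial serine hydroxymethyltransferases, were at 0.57 and -0.43; without _a_at, _s_at and _x_at probe sets Shmt1 was at 1.11. The enzymes of the malate-aspartate shuttle, chosen after their values were seen, were at -0.01 for Got1, -0.03 for Got2, -0.01 for Mdh1 and -0.02 for Mdh2, beside -0.10, -0.17 and -0.05 for the shuttle's carriers Slc25a11, Slc25a12 and Slc25a13.

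**Figure D4:**
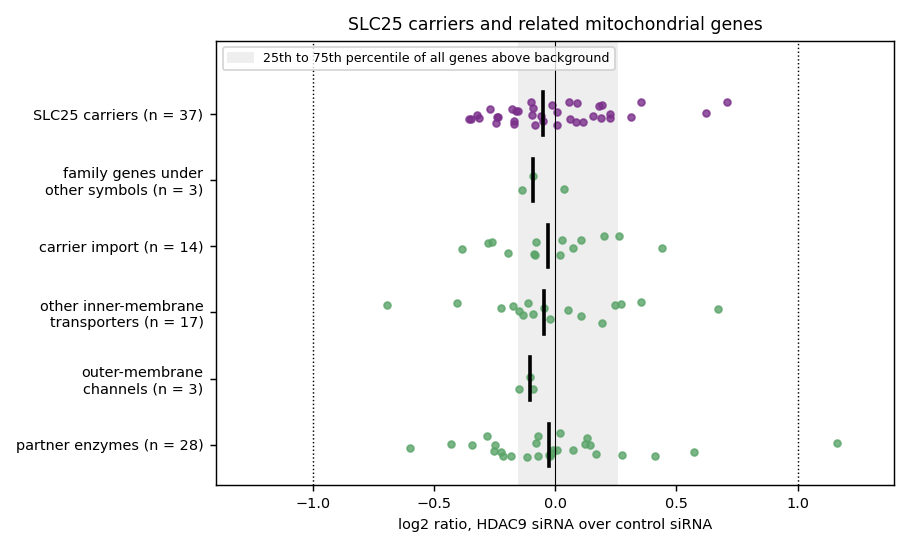
Log2 ratio, HDAC9 siRNA to control siRNA, for the 37 SLC25 genes above background and for genes of 5 related lists (rows; each point is a gene, the black bar is the median, vertical scatter within a row carries no value). The grey band spans the 25th to 75th percentile of all genes above background, -0.15 to 0.25, and holds every median. Acod1 is the only point past the dotted lines at 2-fold. The points of Slc25a18, Slc25a23, Slc25a34 and Sfxn4 are bounds.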

How the data were processed

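Total RNA from 2 macrophage samples was labelled and hybridised to Affymetrix arrays. Deposited signals, 1 per probe set, are on a log2 scale from 0 to 15.2, and the submitters' processing notes name MAS5; its settings, scaling target and detection calls are not stated there. The trimmed mean linear signal, without the highest and lowest 2%, was 497 on both arrays, so this scaling was kept. Symbols came from GEO's platform annotation, which can be old: 34945 of 45037 probe sets had 1 symbol, 932 several and 9160 none, and the last 2 kinds were left out. Identifiers of 34741 probe sets matched the RefSeq gene table of GRCm38.p6.

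Floors, ratios, medians and counts were computed with Python 3.11.15, numpy 2.4.6 and pandas 2.3.3, and the steps were tested on simulated data. Alternatives tried were quantile, loess (span 0.3) and median scaling, floors at percentiles 75 and 99, a pseudocount of 1 in place of any floor, a median of each gene's probe sets, leaving out _a_at, _s_at and _x_at probe sets, a 1.5-fold threshold and genes above background on both arrays. The members, lists and motifs were chosen with earlier results of these data known. Signals on both arrays are given for carriers past 1.5-fold, the 10 with the highest signal, and the ADP/ATP, carboxylate, carnitine and iron carriers; other role groups have up to 4 genes by size of ratio, as do other lists. The number of arrays, 1 per group, limits the precision.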

Additional observations from a re-analysis of the deposited data

How the results depend on the processing

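The 0 carriers at least 2-fold higher became 2 with the floor at the 75th percentile (Slc25a18 and Slc25a23), 3 with no floor (these and Slc25a2) and 2 at a threshold of 1.5-fold. The 0 at least 2-fold lower became 1, Slc25a54, with that lower floor and 1 with no floor. These 2 settings kept 41 and 44 carriers. Among all genes the lower floor gave 658 of 15136 higher (4.35%) and 259 lower (1.71%). No floor gave 2223 of 18193 higher (12.2%) and 1481 lower (8.14%). In each of Slc25a2, Slc25a18, Slc25a23 and Slc25a54 at least 1 array was under the 95th percentile. Without _a_at, _s_at and _x_at probe sets, 32 carriers remained, with a median of -0.0028, and the import genes had a median of -0.11; the cause was not tested. Under the other alternatives the carrier median stayed between -0.09 and -0.02, and the number with a ratio below 0 was 20 to 26 of 34 to 44 genes. Of 288 alternative values for the 37 carriers, 274 moved by less than the probe-set scatter of 0.29, and 8 carriers changed sign at least once, 3 of them under another scaling. Signals near the floor limit what can be said of Hdac9, Slc25a18, Slc25a23, Slc25a34, Slc25a35, Slc25a42, Slc25a47, Slc25a53 and Slc25a54. No paired analysis was possible because each group had 1 array.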

Other observations

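A further probe set carries the symbols of both Slc25a37 and the predicted gene Gm16867 and was therefore left out of the gene values. Its log2 signal was 0.96 with control siRNA and 5.35 with HDAC9 siRNA, both below background, so it gives no second reading of mitoferrin 1.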
